A study of Mus musculus with 8 samples.

Results

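The adipocyte genes described here are Adipoq, Retn, Lep, Plin1, Cidec, Fabp4, Car3, Cfd, Lipe and Pck1, 10 genes chosen by name as products that fat cells make in quantity. A gene was counted as measured where the platform annotation gives 1 probe set that symbol alone, and this held for 9 of the 10, each with 1 probe set, among 19935 genes in all. Cfd (complement factor D, or adipsin) was not analysed here. The RNA came from skin of Adam10 knockout mice (4 samples) and Adam10 wild-type mice (4 samples) and was read on Affymetrix Mouse Gene 1.0 arrays. The Adam10 protein is a protease of the cell surface that sheds the outer part of Notch receptors, among other proteins. The sample titles mark the knockouts as cKO, which usually stands for conditional knockout, but the labels name neither the Cre driver nor the cells that lost the gene. They give no strain, sex or age in words, although each title carries a P and a number. The number was 57, 58, 59 and 60 for wild types 1 to 4 and 67, 68, 69 and 55 for knockouts 1 to 4. What it stands for is not settled, and its part in the values was not tested. Some labels call the material skin tissue and others primary skin cells, so whether the fat below the dermis was taken along is not settled. They also do not say that each sample is a separate animal, so the p-values measure the spread between these samples.

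White fat cells store triglyceride in 1 large lipid droplet and release fatty acids from it when the body needs fuel. In mouse skin they form a layer under the dermis that thickens and thins with the hair cycle, and below it lies a thin sheet of skeletal muscle. Fat cells are told from other skin cells by hormones they secrete, by the proteins that coat their droplet and by the enzymes and carriers that move fatty acids. The transcription factors Pparg and Cebpa switch these genes on together during fat cell formation.

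Promoter sequence is shown for 4 of the genes because they differ in behaviour on wild-type array 4, where the fat cell genes were highest. Adipoq, Retn and Pck1 were more than 2-fold above every other array there, and Lep was not. Adipoq on the other 7 arrays and Lep on all 8 lay under the 25th percentile of the genes on the array. Retn lay under it on knockout array 1 and close to it on wild-type arrays 2 and 3. The sizes of these folds are thus not settled. The sequences are the 250 bases before the transcription start in RefSeq (mouse build GRCm38.p6), 5′ to 3′ on the strand of the gene. Capitals mark matches, on either strand, to 5 motifs searched for by their letters. They were the TATA box as TATAA, the CCAAT box as CCAAT, a site of the C/EBP factors as TTGCGNAA, the direct repeat bound by PPAR and RXR factors as 2 copies of AGGTCA spaced by 1 base, and the core of the cyclic AMP response element as ACGTCA.
Adipoq (chr16:23146286-23146535, + strand): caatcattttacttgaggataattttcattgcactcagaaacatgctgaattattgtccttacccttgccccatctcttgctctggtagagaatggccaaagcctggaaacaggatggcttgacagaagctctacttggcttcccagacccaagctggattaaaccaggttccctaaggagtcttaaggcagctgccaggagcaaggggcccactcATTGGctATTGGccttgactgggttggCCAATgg
Retn (chr8:3655520-3655769, + strand): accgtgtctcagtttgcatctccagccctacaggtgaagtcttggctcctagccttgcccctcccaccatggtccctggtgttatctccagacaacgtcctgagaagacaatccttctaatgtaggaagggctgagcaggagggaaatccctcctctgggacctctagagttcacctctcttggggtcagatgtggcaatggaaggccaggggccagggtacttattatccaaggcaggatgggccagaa
Lep (chr6:29059971-29060220, + strand): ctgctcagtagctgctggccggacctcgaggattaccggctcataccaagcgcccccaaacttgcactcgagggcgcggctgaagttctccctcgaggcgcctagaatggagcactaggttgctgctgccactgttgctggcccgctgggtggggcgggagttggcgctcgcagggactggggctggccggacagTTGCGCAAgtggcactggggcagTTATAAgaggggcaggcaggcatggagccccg
Pck1 (chr2:173152823-173153072, + strand): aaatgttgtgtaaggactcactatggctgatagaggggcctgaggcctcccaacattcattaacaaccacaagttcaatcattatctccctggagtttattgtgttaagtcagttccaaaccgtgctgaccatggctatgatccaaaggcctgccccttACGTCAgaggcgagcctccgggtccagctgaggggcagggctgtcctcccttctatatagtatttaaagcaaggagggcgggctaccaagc

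The Adipoq sequence held 3 CCAAT matches, 2 of them on the opposite strand as ATTGG, at bases -34, -27 and -7 counted from the transcription start to the first base of the match. The Lep sequence held 1 C/EBP match at -55 and a TATA match on both strands that overlap each other, at -32 and -31. The Pck1 sequence held 1 match to the response element core at -91, and the Retn sequence matched none of the 5 motifs. Of 32851 mouse promoter windows of this length, 33.8% held the CCAAT motif, 22.8% the TATA motif, 6.47% the response element core, 0.670% the C/EBP motif and 0.0335% the PPAR repeat. These matches describe the letters in the window and do not show that a factor binds there. RefSeq windows were at hand for 7 of the 9 measured genes.

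Array medians lay between 13.3 and 15.1 intensity units. Values are given as log2 intensity, and a probe set's level is compared only with itself on other arrays. Krt14 and Krt5, the keratins of the basal epidermis, were bright on every array. Krt14 lay between 11.86 and 12.12 in the knockouts and between 11.04 and 11.56 in wild type, and Krt5 between 12.29 and 12.40 in the knockouts and between 11.75 and 12.07 in wild type. Adam10 lay between 6.79 and 7.04 in the knockouts and between 7.06 and 7.39 in wild type, a difference of -0.36 (SE 0.11, adjusted p = 0.064 by limma). Of the 19935 genes, 1277 (6.41%) were higher and 467 (2.34%) lower in the knockout at an adjusted p under 0.05 by limma, against 713 and 549 after quantile normalization and 674 and 653 after cyclic loess. Wild-type array 4 stood apart from the other 7, so each comparison was also made without it and without wild-type arrays 3 and 4 together. Those 2 fits called 1997 and 925 genes.

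The adipocyte genes were highest on 1 array, wild-type array 4, and differed far less among the other 7. All 9 measured genes had their highest value there, where 19.2% of all genes did. For 7 of the 9 the excess over every other array was more than 2-fold, which held for 1.99% of all genes. The exceptions were Lep and Lipe. Averaged over the 9 genes, each taken relative to its own mean of 8 arrays, the log2 level was -0.62 to -0.56 in the knockouts. It was -0.53, 0.03 and -0.27 on wild-type arrays 1 to 3 and 3.15 on wild-type array 4. In bulk skin RNA, fewer fat cells in a sample and less of the RNA per fat cell cannot be told apart.

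**Figure D1:**
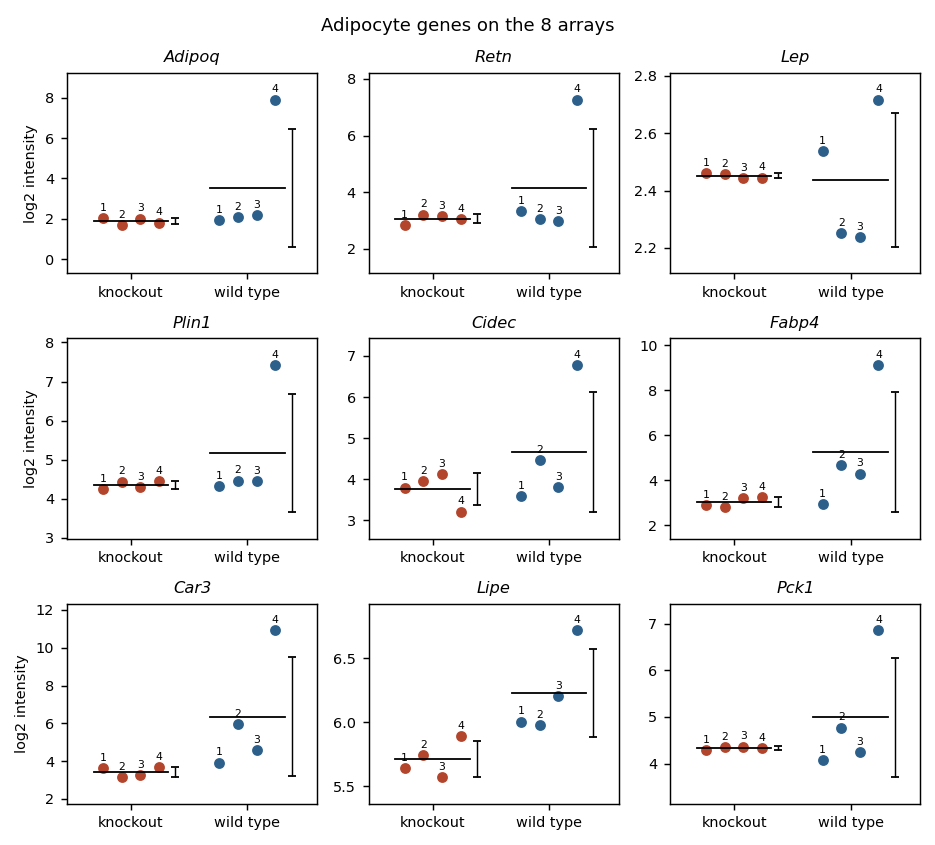
Log2 intensity of the 9 measured adipocyte genes on the 4 knockout (left) and 4 wild-type (right) arrays, 1 panel per gene. Points are arrays with their replicate number, the line is the group mean and the bar beside it the SD. Wild-type array 4 is the highest point in each panel, and the vertical scale differs between panels.

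Of the 3 hormones of fat cells, Adipoq and Retn were high on wild-type array 4 alone and Lep was low throughout. Adipoq encodes adiponectin, a fat cell hormone that raises insulin sensitivity. Its log2 intensity was 2.04, 1.69, 2.00 and 1.80 in knockouts 1 to 4, against 1.93, 2.07, 2.19 and 7.90 in wild types 1 to 4. Apart from wild-type array 4 the arrays spanned 0.50 with the genotypes mixed, and on these 7 arrays Adipoq lay under the 25th percentile of the genes on its array. Wild-type array 4 exceeded the highest of the others by 5.71, against a signal that was low on the others.

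Retn encodes resistin, which in mice is secreted by fat cells and opposes insulin action. It was at 2.85, 3.21, 3.17 and 3.04 in the knockouts, against 3.33, 3.04, 2.97 and 7.27 in wild type. The 7 low arrays spanned 0.48 with the genotypes mixed, and wild-type array 4 was 3.94 above them. Retn lay under the 25th percentile of the genes on knockout array 1 and close to it on wild-type arrays 2 and 3. The size of this excess is therefore not settled. Lep encodes leptin, the hormone that reports fat stores to the brain. It was at 2.46, 2.46, 2.44 and 2.45 in the knockouts, against 2.54, 2.25, 2.24 and 2.72 in wild type. Lep thus lay under the 25th percentile of its array on all 8 arrays, wild-type array 4 included, where it was 0.18 above the next array. The knockout values lay inside the wild-type range.

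The droplet proteins followed wild-type array 4 in the same way. Plin1 encodes perilipin 1, which coats the droplet and guards it from lipases. It was at 4.26, 4.44, 4.29 and 4.45 in the knockouts, against 4.32, 4.46, 4.46 and 7.42 in wild type. Outside wild-type array 4 its whole range was 0.21. Cidec encodes a protein that fuses droplets into a single large one. It was at 3.80, 3.95, 4.12 and 3.21 in the knockouts, against 3.60, 4.47, 3.80 and 6.78 in wild type. Wild-type array 4 was 2.31 above the next highest, wild-type array 2, and the other values of the groups overlapped.

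Car3 and Fabp4 varied most among the arrays outside wild-type array 4. Car3 encodes carbonic anhydrase III, an abundant cytosolic enzyme of fat cells that slow skeletal muscle also makes. It was at 3.63, 3.15, 3.26 and 3.70 in the knockouts, against 3.93, 5.97, 4.59 and 10.93 in wild type. The groups did not overlap, and wild-type array 1 was the wild type nearest to the knockouts. Fabp4 encodes the fatty acid carrier aP2 of fat cells, which capillary endothelium and macrophages also make. It was at 2.91, 2.81, 3.20 and 3.24 in the knockouts, against 2.96, 4.70, 4.30 and 9.13 in wild type. Wild-type array 1 fell within the knockout range, while wild-type arrays 2 and 3 exceeded it.

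Lipe and Pck1 are enzymes of fuel release and glycerol synthesis. Lipe encodes hormone-sensitive lipase, which releases fatty acids from stored lipid. It was at 5.64, 5.74, 5.57 and 5.89 in the knockouts, against 6.01, 5.98, 6.21 and 6.72 in wild type. The groups did not overlap, and wild-type array 4 exceeded the next highest by 0.52. Pck1 encodes the cytosolic phosphoenolpyruvate carboxykinase, which makes glycerol for triglyceride in fat cells and glucose in liver and kidney. It was at 4.28, 4.36, 4.36 and 4.33 in the knockouts, against 4.08, 4.77, 4.24 and 6.86 in wild type. The knockout values lay between wild-type arrays 3 and 2.

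Between the genotypes, 0 of the 9 adipocyte genes passed the test over all genes, where 8.75% of the 19935 genes did. By limma on all 8 arrays 2 of the 9, Lipe and Car3, had an unadjusted p under 0.05, where 5008 of the 19935 genes did. The smallest adjusted p among the 9 was 0.077. The mean was lower in the knockout for 8 of 9, and the median difference was -0.89 on the log2 scale, against 0.0027 for all genes. Lipe differed by -0.52 (SE 0.16, adjusted p = 0.077), with means of 5.71 ± 0.14 in knockout and 6.23 ± 0.34 in wild type (SD, n = 4 each). Car3 differed by -2.92 (SE 1.22, adjusted p = 0.17), with means of 3.43 ± 0.27 in knockout and 6.35 ± 3.17 in wild type. These were also the genes whose groups did not overlap, 2 of 9, where 5.86% of all genes lay lower in the knockout without overlap. The exact two-sided permutation p was 0.0286 for each, the smallest that 70 assignments of the arrays allow, unadjusted among 9 genes.

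The other 7 differences had an unadjusted p above 0.05. Fabp4 differed by -2.23 (SE 1.03), Adipoq by -1.64 (SE 1.12) and Retn by -1.09 (SE 0.80). Cidec differed by -0.89 (SE 0.58), Plin1 by -0.81 (SE 0.58) and Pck1 by -0.65 (SE 0.50), and Lep by 0.02 (SE 0.12). Their adjusted p ran from 0.21 for Fabp4 to 0.95 for Lep. The SD of the wild-type group exceeded that of the knockout group for all 9 genes, and for Adipoq it was 0.16 in knockout and 2.92 in wild type.

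Without wild-type arrays 3 and 4, the difference shrank toward 0 for most of the genes. The median of the 9 was -0.12, against 0.0081 for all genes, and 0 of 9 passed, where 4.64% of all genes did and 2.96% were called higher and 1.68% lower. With a 95% confidence interval from limma, Adipoq differed by -0.12 (-0.42 to 0.19), Retn by -0.12 (-0.44 to 0.20) and Plin1 by -0.03 (-0.30 to 0.24). Lep differed by 0.06 (-0.21 to 0.33), Pck1 by -0.09 (-0.48 to 0.30) and Cidec by -0.26 (-0.88 to 0.35). For Adipoq, Retn, Plin1, Lep and Pck1 these intervals stay within 0.5 on the log2 scale either way. Adipoq and Lep lay under the 25th percentile of the genes on every array of this fit. Retn lay under it on knockout array 1 (2.85 against 2.90) and close to it on wild-type array 2 (3.04 against 3.02). A signal that low may not show a difference, so the narrow intervals of Adipoq, Lep and Retn do not bound one.

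Car3, Fabp4 and Lipe kept a larger difference without those 2 arrays. Car3 differed by -1.51 (-2.48 to -0.55, adjusted p = 0.082), Fabp4 by -0.79 (-1.61 to 0.03, adjusted p = 0.27) and Lipe by -0.28 (-0.56 to 0.0015, adjusted p = 0.26). Car3 was at 3.93 and 5.97 on wild-type arrays 1 and 2, so array 2 lay further from the knockouts than array 1. Groups without overlap, lower in the knockout, were seen for 2 of 9, Car3 and Lipe again, against 11.7% of all genes. Leaving out arrays cannot make separate groups overlap, so for Car3 and Lipe this was fixed by the result on all arrays. With wild-type array 4 alone left out, Car3 passed at -1.39 (SE 0.37, adjusted p = 0.041 by limma), which made 1 of 9, where 10.0% of all genes passed and 3.25% were lower. Fabp4 was then at -0.94 (adjusted p = 0.098) and Lipe at -0.35 (adjusted p = 0.073). On all 8 arrays Lipe passed with array weights (adjusted p = 0.014), where 18.2% of all genes did, and after a filter on dim genes (adjusted p = 0.042), which 4 members passed and where 23.5% of the genes were called.

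**Figure D2:**
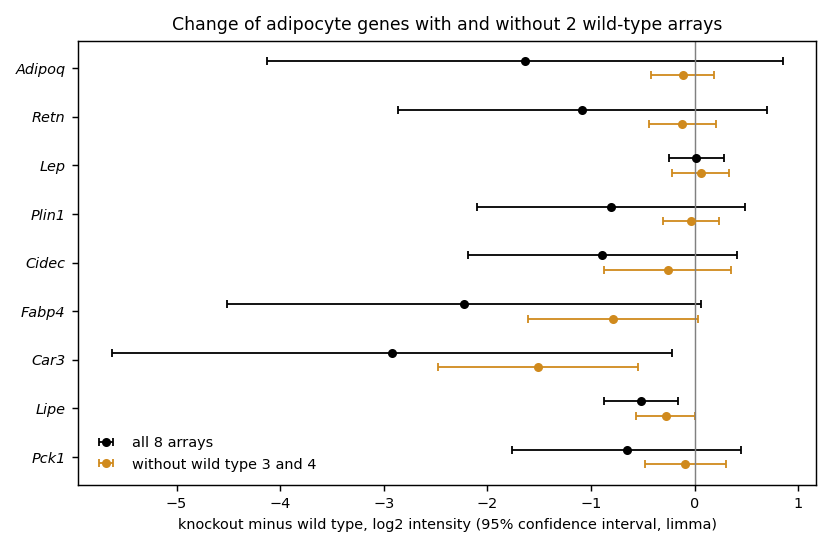
Difference of knockout minus wild type in log2 intensity for the 9 adipocyte genes, with 95% confidence intervals from limma, on all 8 arrays (black) and without wild-type arrays 3 and 4 (orange). The intervals narrow and most differences move toward 0 when the 2 arrays are left out, while Car3 stays at -1.51.

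Markers of other tissues were also high on wild-type array 4. The mean of 15 skeletal muscle genes, each relative to its own mean, was -0.71 to -0.46 in the knockouts and -0.57, -0.30, 0.60 and 2.69 on wild-type arrays 1 to 4. Of these 15 genes 14 were highest on wild-type array 4. For 10 dermal fibroblast genes the mean was -0.66 to -0.60 in the knockouts and -0.69, -0.47, 0.93 and 2.79 in wild type. For 10 genes of blood endothelium, which makes Fabp4, it was -0.50 to -0.22 in the knockouts and -0.40, -0.18, 0.21 and 1.89 in wild type. Basal keratinocyte genes (10) moved the other way, at 0.34 to 0.60 in the knockouts and -0.30, -0.27, -0.42 and -0.87 in wild type. The part of any of these tissues in the fat cell values was not tested.

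Fat cell and muscle or dermal genes did not rank the remaining wild-type arrays alike. Wild-type array 3 had the second highest mean of the muscle, dermal and endothelial lists, while its adipocyte mean of -0.27 lay below the 0.03 of wild-type array 2. The mean of 10 macrophage genes was -0.67 to -0.33 in the knockouts and 0.28, 0.27, 0.28 and 1.12 in wild type, without overlap, and macrophages also make Fabp4. The mean of 12 genes of the growing hair follicle, whose stage goes with the thickness of the skin fat, was -0.07 to 0.02 in the knockouts and -0.12 to 0.17 in wild type. Its members went both ways, with 7 of 12 at an unadjusted p under 0.05, where 5008 of the 19935 genes were. Lef1, a transcription factor of the hair matrix, rose by 0.61 (adjusted p = 0.039), and Tchh, trichohyalin of the inner root sheath, fell by 0.78 (adjusted p = 0.015). Without wild-type array 4 Lef1 passed (0.46, adjusted p = 0.033 by limma). Without wild-type arrays 3 and 4 it did not (0.38, adjusted p = 0.14), while Tchh did (-0.98, adjusted p = 0.0086). The Y-linked gene Eif2s3y was high on 2 of 4 knockout and 3 of 4 wild-type arrays, wild-type array 4 among them.

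**Figure D3:**
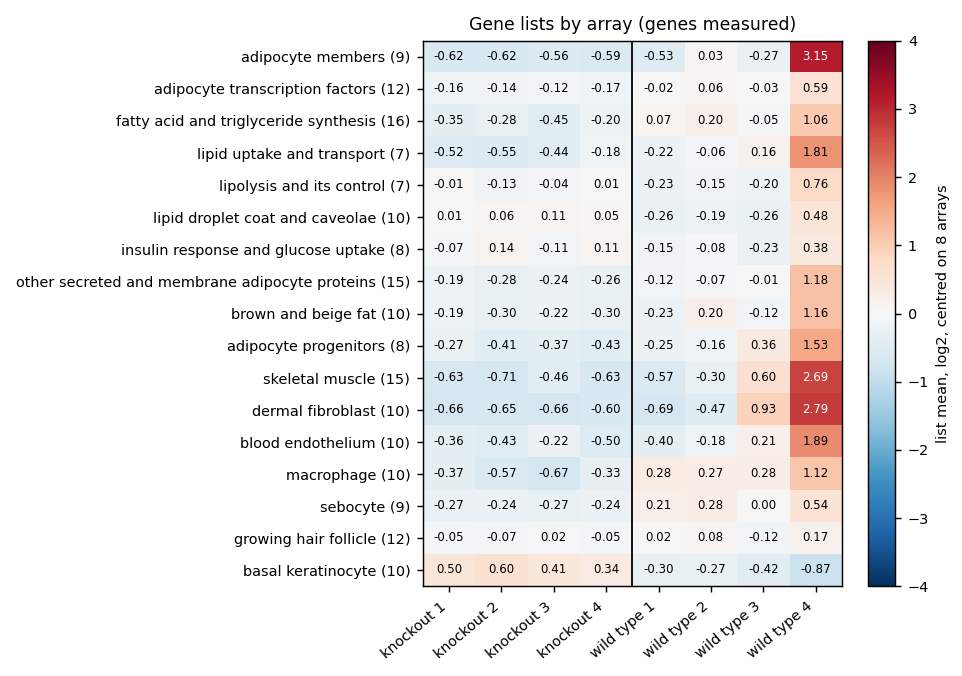
Mean log2 level of each gene list on each array, every gene centred on its own mean of the 8 arrays, with the number of measured genes in brackets. Knockout arrays are left and wild-type arrays right of the line. The adipocyte members reach 3.15 on wild-type array 4 and lie between -0.62 and 0.03 elsewhere.

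The wider fat cell program was read from 9 lists of pathway genes, 93 of which were measured. On wild-type array 4, 32 of the 93 were more than 2-fold above every other array, where 1.99% of all genes were. Such values widen the wild-type spread in the fit on all 8 arrays. Among the 93, 5 were called higher and 7 lower in the knockout, where 6.41% of all genes were called higher and 2.34% lower. Their median difference was -0.34, against 0.0027 for all genes. Without wild-type arrays 3 and 4, 5 were called higher and 8 lower, where 2.96% and 1.68% of all genes were. The median of the 93 was then -0.12. Among genes high on wild-type array 4, Cd36, Cd34, Scd1 and Cox8b passed as lower once that array was left out (adjusted p = 0.0097, 0.023, 0.032 and 0.036 by limma).

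The factors that turn on the fat cell program gave 0 calls among 12, where 8.75% of all genes were called. Of the 12, 3 had an unadjusted p under 0.05, where 5008 of the 19935 genes did, and the median was -0.21. The smallest p among the 12 factors belonged to Stat5a at -0.21 (SE 0.09, adjusted p = 0.17) and Nr1h3 at -0.47 (SE 0.20, adjusted p = 0.17). Pparg, the master regulator of fat cell formation, was at 3.73, 3.73, 4.19 and 3.81 in the knockouts, against 4.57, 4.02, 3.97 and 6.65 in wild type. It thus followed the same array as its targets, with a difference of -0.94 (SE 0.50, adjusted p = 0.27). Of 8 genes of adipocyte progenitors 0 passed on all arrays, where 8.75% of all genes did. Without wild-type arrays 3 and 4, 1 of the 8 fell, where 1.68% of all genes were called lower. This was Cd34 (-0.59, adjusted p = 0.0499 by limma), a surface protein of progenitors that endothelium and hair follicle stem cells share. Dlk1, an inhibitor of fat cell formation, was at 5.31 to 5.82 in the knockouts and at 5.31, 6.06, 7.79 and 10.32 in wild type.

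Of 16 enzymes and regulators of fatty acid and triglyceride synthesis 4 fell and 0 rose in the knockout, where 2.34% of all genes were called lower. All 16 differences were below 0, as were 9879 of the 19935 over all genes, and the median was -0.41. After quantile or cyclic loess normalization 5 fell and 0 rose. Without wild-type arrays 3 and 4, 3 fell, where 1.68% of all genes were called lower, 13 of 16 were below 0 and the median was -0.39. Scd2, a desaturase that makes oleate, was at 7.98, 8.10, 7.83 and 8.83 in the knockouts, against 9.25, 9.72, 9.20 and 9.04 in wild type. Its difference was -1.12 (SE 0.22, adjusted p = 0.014), with wild-type array 4 the lowest wild type. Gpam, the acyltransferase that starts triglyceride synthesis, fell by 0.67 (SE 0.10, adjusted p = 0.0046). Me1, malic enzyme, and Acly, ATP citrate lyase, which both feed fatty acid synthesis, fell by 0.41 and 0.40 (adjusted p = 0.023 and 0.046). Neither passed without wild-type arrays 3 and 4 (adjusted p = 0.084 and 0.070 by limma), where the 3 calls were Gpam, Scd2 and Scd1.

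These enzymes are not particular to fat cells, since sebaceous glands and keratinocytes also make lipid. Among 9 sebocyte genes 2 fell and 0 rose on all arrays, where 2.34% of all genes were called lower and 6.41% higher. The median of the 9 was -0.37, against 0.0027 for all genes. Scd1, a desaturase of fat and sebaceous cells, was at 5.24, 5.76, 5.37 and 6.35 in the knockouts, against 6.70, 6.96, 6.32 and 8.50 in wild type. It missed the threshold on all arrays (-1.44, SE 0.42, adjusted p = 0.060) and passed without wild-type arrays 3 and 4 (-1.15, adjusted p = 0.040). Of the 8 fits that leave out 1 array, Gpam was called in 8, Scd2 in 7 (adjusted p = 0.055 where knockout array 2 was left out), Me1 in 4 and Acly in 2.

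Of 7 genes of fatty acid uptake 1 fell and 0 rose on all arrays, where 2.34% of all genes were called lower. Without wild-type arrays 3 and 4, 2 of the 7 fell, where 1.68% of all genes were called lower. Fabp5, the fatty acid carrier of keratinocytes that fat cells share, fell by 0.60 (SE 0.14, adjusted p = 0.028), the call on all arrays, and lost its call in 6 of the 8 fits with 1 array left out. Cd36, a fatty acid transporter of fat, muscle, endothelium and macrophages, was at 2.50, 1.84, 1.84 and 2.08 in the knockouts, against 2.92, 3.46, 4.38 and 8.21 in wild type. The groups did not overlap, the difference was -2.68 (SE 0.92, adjusted p = 0.10), and it passed without wild-type array 4 (-1.52, adjusted p = 0.0097) and without wild-type arrays 3 and 4 (-1.13, adjusted p = 0.020). Cd36 lay under the 25th percentile of the genes on all 4 knockout arrays, so the size of the difference is not settled. Lpl, the lipase that frees fatty acids from lipoproteins, was at 3.54 to 4.18 in the knockouts and 3.93, 4.78, 5.07 and 8.62 in wild type (adjusted p = 0.22).

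Of 10 genes of the droplet coat and of caveolae, the membrane pits abundant in fat cells, 2 rose and 0 fell. Over all genes 6.41% were called higher and 2.34% lower. After quantile or cyclic loess normalization 1 of the 10 rose and 1 fell, and Cav2 lost its call. Cavin1, a coat protein of caveolae, was at 8.58, 8.65, 8.27 and 8.33 in the knockouts, against 7.43, 7.45, 7.46 and 7.93 in wild type, a rise of 0.89 (SE 0.14, adjusted p = 0.0057). Cav2, a caveolin, rose by 0.80 (SE 0.18, adjusted p = 0.025) and lost its call in 5 of the 8 fits with 1 array left out. Cav1, its partner, passed without wild-type arrays 3 and 4 (1.16, adjusted p = 0.0028) but not on all arrays (0.81, adjusted p = 0.091). The droplet coat protein Plin4 did not pass (-0.34, SE 0.23, adjusted p = 0.38).

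Among 7 genes of lipolysis and its control 1 was called, where 8.75% of all genes were. This was Npr3, the clearance receptor of natriuretic peptides, which rose by 1.10 (SE 0.11, adjusted p = 0.0011). Its values were 6.44, 6.65, 6.53 and 6.60 in the knockouts, against 5.53, 5.36, 5.25 and 5.67 in wild type. Mgll, monoacylglycerol lipase, joined it without wild-type arrays 3 and 4 (0.96, adjusted p = 0.0091). Of 8 genes of insulin response 1 rose and 0 fell, where 6.41% of all genes were called higher and 2.34% lower. This was Irs2, an adaptor of the insulin receptor, which rose by 0.56 (SE 0.13, adjusted p = 0.028). Irs2 did not pass without wild-type arrays 3 and 4 (adjusted p = 0.15), after quantile normalization (adjusted p = 0.064) or after cyclic loess (adjusted p = 0.0502). Of 15 other secreted and membrane proteins of fat cells 1 fell and 0 rose, where 2.34% of all genes were called lower. This was Nrg4, an EGF family ligand that brown fat and some epithelia release, which fell by 0.76 (SE 0.12, adjusted p = 0.0058). It stayed called in all 8 fits with 1 array left out. Nrg4 lay under the 25th percentile of the genes on all 4 knockout arrays, so the size of its fall is not settled.

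**Figure D4:**
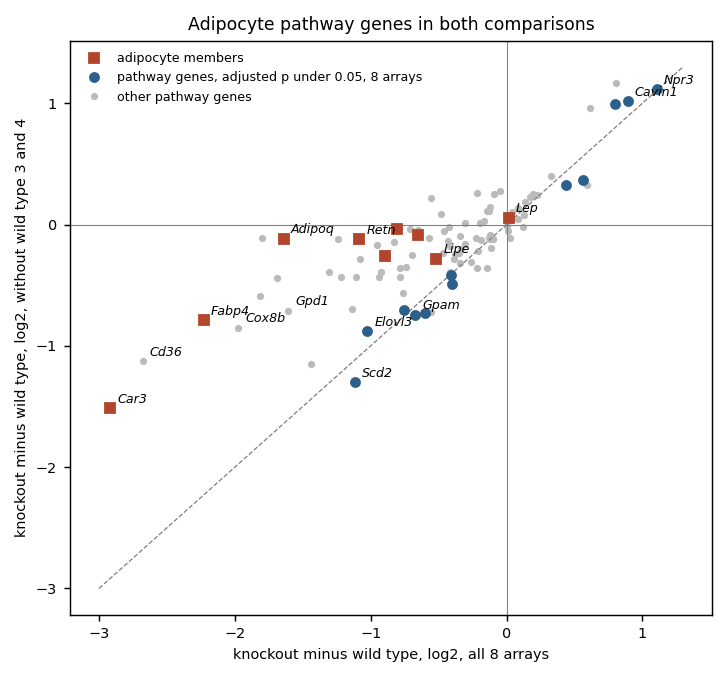
Difference of knockout minus wild type in log2 intensity on all 8 arrays (horizontal) and without wild-type arrays 3 and 4 (vertical), 1 point per gene, with the line of equal values dashed. The fits share 6 arrays. The 12 pathway genes called on all arrays (blue) lie near the line, and the adipocyte members (red squares) lie above it, all but Lep nearer to 0 on the vertical axis.

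Several fat genes, among them Ucp1 and Cox7a1 of brown fat, were higher on wild-type array 2 than on the other arrays apart from array 4. Leaving wild-type array 4 aside, 5 of the 9 members had their highest value on wild-type array 2, against 19.5% of all genes. Car3 and Pck1 were more than 0.4 above the other 6 arrays there, 2 of 9 where 0.737% of all genes were, and 7 of the 93 pathway genes were as well. These 7 were Ucp1, Gpd1, Thrsp, Rbp4, Scd2, Cox7a1 and Pdk4, and the margin of 0.4 was chosen after the values were seen. Of the 10 brown fat genes only Ucp1 and Cox7a1 are among these 7. Dio2 was lower on wild-type array 2 (3.12) than in the knockouts (3.36 to 3.45), and Elovl3 was lower there (3.32) than on wild-type array 1 (3.48). Ucp1, the uncoupling protein that lets brown fat make heat, was at 3.16, 3.12, 3.06 and 3.18 in the knockouts, against 2.91, 4.73, 3.00 and 6.41 in wild type. Adipoq and Retn were not highest among those 7 arrays on wild-type array 2.

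Brown fat genes as a list gave 1 rise and 1 fall among 10, where 6.41% of all genes were called higher and 2.34% lower. Dio2, a deiodinase that activates thyroid hormone, rose by 0.44 (SE 0.10, adjusted p = 0.028), but did not pass without wild-type arrays 3 and 4 (adjusted p = 0.13). Elovl3, a fatty acid elongase of brown fat and of sebaceous glands, fell by 1.02 (SE 0.20, adjusted p = 0.014) and also fell without those arrays (-0.88, adjusted p = 0.034), but did not pass without knockout array 2 (adjusted p = 0.055). On 3 of the 4 knockout arrays Elovl3 lay under the 25th percentile of the genes. Cox8b, a respiratory chain subunit of brown fat and muscle, was at 3.21, 3.10, 2.96 and 2.58 in the knockouts, against 3.24, 4.39, 4.11 and 8.02 in wild type (adjusted p = 0.16). Gpd1, which makes glycerol phosphate for triglyceride, was at 3.69, 3.50, 3.55 and 3.61 in the knockouts, against 3.81, 4.78, 3.86 and 8.33 in wild type (adjusted p = 0.25). For Cox8b and Gpd1 the groups did not overlap, and wild-type array 1 was the wild type nearest to the knockouts. Without wild-type array 4, Cox8b passed (-0.95, adjusted p = 0.036).

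**Figure D5:**
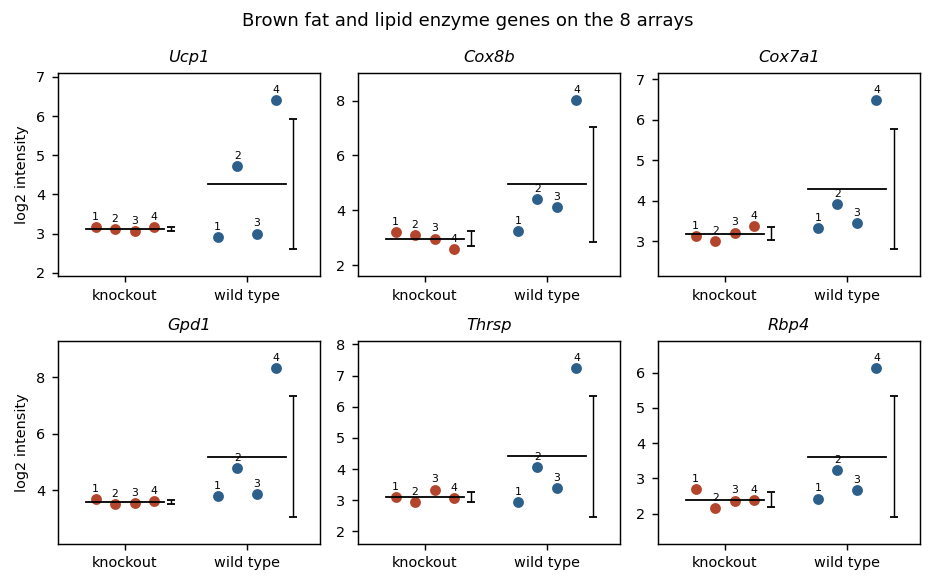
Log2 intensity of 6 genes of brown fat and lipid metabolism on the 4 knockout (left) and 4 wild-type (right) arrays, with replicate numbers, group means as lines and SD as bars. The genes are Ucp1, Cox8b, Cox7a1, Gpd1, Thrsp and Rbp4, chosen with their values known. Wild-type array 4 is highest and wild-type array 2 second highest in each panel, which describes these genes only. Elovl3 and Dio2 of the brown fat list, not shown, do not follow this order.

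The genes outside the set with the profile most like the mean of the 9 members were drawn from several tissues. Likeness was the root mean square difference over the 8 arrays between centred log2 profiles. Rbp4, a retinol carrier secreted by liver and fat, was nearest at 0.16, followed by Cox7a1, a respiratory chain subunit of muscle and brown fat, at 0.18. Next came the endothelial sialomucin Emcn (0.21), the lipogenic nuclear protein Thrsp (0.22) and the peroxisomal transporter Abcd2 (0.26). The muscle genes Mybpc2 and Actn3 (both 0.27), the matrix genes Mfap5 (0.27) and Eln (0.28) and the mast cell tryptase Tpsb2 (0.28) completed the 10 nearest. All 10 were highest on wild-type array 4, which this choice of genes fixed.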

How the data were processed

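Gene expression was measured in 4 Adam10 knockout and 4 wild-type samples of mouse skin. Each deposited table holds an intensity for every probe set, which the authors obtained with RMA (robust multi-array averaging), according to the submitters' processing notes. The sources used here give no version, settings or genome build for it. Values ran from 0.817 to 11173 and were read as linear, and log2 was taken without a pseudocount. Of 35519 probe sets, 21780 have 1 gene symbol in the platform annotation, 1605 several and 12134 none here. For 998 genes with several probe sets the one with the highest mean was kept, leaving 19935 genes. The 9 measured members have the same symbol in RefSeq (GRCm38.p6).

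Knockout minus wild type was fitted with limma 3.58.1 in R 4.3.3 (lmFit, eBayes, two-sided) adjusted by Benjamini-Hochberg over the 19935 genes at a threshold of 0.05. The fit was tested on simulated data. Adjusted p-values are from limma. The alternatives were leaving out arrays, quantile and cyclic loess normalization, a dim gene filter, averaging a gene's probe sets, log2 of the value plus 16, array weights, a trended robust prior, and muscle or Y-linked covariates. Array precision is limited by the number of arrays, and no detection calls or scan batches were used.

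The members and lists were chosen with earlier results of these data known. Lists hold 177 memberships, 169 of them measured. Named genes are the members, Adam10, up to 2 rises and 2 falls per list (with none passing, the smallest p) and the 10 nearest profiles, where these bear on the members. Me1, Acly, Scd1, Cd36, Mgll, Cav1, Pparg, Lpl, Gpd1, Ucp1, Cox8b, Plin4, Dlk1, Pdk4, Krt5, Krt14 and Eif2s3y were chosen after their values were seen.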

Additional observations from a re-analysis of the deposited data

Results flagged for a closer look

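A test for 1 array far from the others of its group (Dixon's ratio of the gap to the range at its 95% critical value) was run on 156 groups of 4, the named genes and list means in each genotype. It passed in 21, and chance gives about 1 in 20. In 18 of the 21 the array was wild-type array 4, and 5 of these 18 are nearest profiles, chosen for their likeness to a mean that is highest there, so the tally is a description and is not read against chance. Among the adipocyte genes these were Adipoq (ratio 0.955), Plin1 (0.955) and Retn (0.917), and the mean of the 9 members (0.848). Fabp4, Car3, Cidec, Pck1 and Lipe did not reach the critical value.

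Of the pathway genes and list means, wild-type array 4 stood apart for Nr1h3 (0.848), Cavin1 (0.937) and the lists of transcription factors (0.865), lipolysis (0.920), droplet coat and caveolae (0.910) and other secreted and membrane proteins (0.917). It did so for the nearest profiles Emcn (0.978), Mfap5 (0.916), Actn3 (0.877), Abcd2 (0.842) and Eln (0.830), for the sebocyte gene Mgst1 (0.963), for the basal keratinocyte integrin Itga3 (0.882, where it was low) and for the macrophage list (0.980). The other 3 were Adam10 on wild-type array 3 (0.831, low), Tpsb2 on knockout array 2 (0.927) and the dermal fibroblast list on knockout array 4 (0.898).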

How the results depend on the processing

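No paired analysis was possible because the labels give no replicate numbers shared by the genotypes. Of the 9 adipocyte genes 0 passed on all arrays, and 0 to 1 passed with 1 array left out (Car3 without wild-type array 4). With array weights 1 passed (Lipe, adjusted p = 0.014 by limma), and after the filter on dim genes 1 of the 4 members kept passed (Lipe, adjusted p = 0.042). The number of genes called was 925 without wild-type arrays 3 and 4, 3621 with array weights and 587 to 1997 with 1 array left out, with 587 without knockout array 2, 911 without knockout array 1, 809 without knockout array 3, 992 without wild-type array 2 and 750 without wild-type array 3. The members' median ran from -1.25 to -0.18 with 1 array left out. With the skeletal muscle mean as a covariate it was 0.19, and the differences of Adipoq (0.64), Retn (0.47), Plin1 (0.36), Cidec (0.19) and Pck1 (0.30) turned positive without passing, and the cause was not tested. Lep, near 0 throughout, ran from -0.0506 to 0.11 with 1 array left out and was negative without wild-type array 2 (-0.0458) or 3 (-0.0506). Apart from these, the direction of the 9 differences was the same under each alternative named in the methods. With no detection calls, the low signals of Adipoq, Retn and Lep set no floor for their folds.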
